A study of Mus musculus with 10 samples.

Results

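The genes described here are 10 keratins of epithelial cells, the proteins that build the intermediate filaments of epithelia. They were chosen by name, as 5 keratins of simple epithelium (*Krt8*, *Krt7*, *Krt18*, *Krt19*, *Krt20*) and 5 keratins of squamous epithelium (*Krt5*, *Krt14*, *Krt15*, *Krt4*, *Krt13*). All 10 were found by gene symbol among the 56691 genes of the table. Of these 10, 8 had enough reads to be among the 16545 genes tested, and *Krt5* and *Krt4* did not.

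RNA sequencing of poly(A) libraries was performed on snap-frozen colon of 10 male mice of the C57/BL6 strain, bought at 8 weeks of age. All 10 mice drank 3% dextran sulfate sodium (DSS), which injures the colon epithelium, for 7 days. The DSS group (DSS-1 to DSS-5) received no ceAF, and the ceAF group (ceAF-1 to ceAF-5) was then given chick early amniotic fluid, the fluid around young chick embryos, by gavage at 15 mL/kg for 10 days. The day of tissue collection in the DSS group, and whether that group was gavaged, are not given in the text of the sources used here. The design diagram of the paper was not available. In the paper, disease scores of the ceAF group began to fall significantly against those of the DSS group on day 12. Mice without DSS or given mesalazine were not analysed here.

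Keratin filaments are built from pairs of a type I and a type II chain, so an epithelial cell needs both kinds. Simple epithelium of the colon is known for *Krt8* with *Krt18*, *Krt19* and *Krt20*, the last in differentiated surface cells, whereas stratified epithelium, such as that of the anal canal, uses *Krt5* with *Krt14* and *Krt15* in its basal layer and *Krt4* with *Krt13* above it. Squamous keratins in a colon sample are therefore used as a sign of anorectal tissue or of squamous change.

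The reads counted on genes were 16611021, 19901549, 16275884, 16401674 and 16426125 in DSS-1 to DSS-5 and 14676471, 15568732, 18811795, 16058782 and 17108058 in ceAF-1 to ceAF-5. Reads on mitochondrially encoded genes, which are part of these totals, made up 5.06% to 6.54% in the DSS mice. They made up 9.66%, 5.64%, 4.53%, 7.24% and 9.74% in ceAF-1 to ceAF-5. Each library is a separate mouse by its label. Levels are given as FPKM, the count scaled to exonic length and to the total of the library, which can be set side by side between genes, and counts are given where they are low. Differences between the groups are log2 fold changes of ceAF against DSS from edgeR, in which a positive value means higher in ceAF. The library ceAF-1 stood apart from the others. On the first principal component of the 16545 tested genes, which held 30.8% of the variance, it scored 93.5, while the scores of the other mice began at −45.5 and ended at 16. Fold changes of keratins that depend on it are given with and without it.

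*Krt8*, *Krt19* and *Krt20* were among the most abundant transcripts of the colon, *Krt18* and *Krt7* were lower, and the squamous keratins were lower again, each below 4 FPKM in every mouse. By mean FPKM over the 10 mice, *Krt8* ranked 9, *Krt19* ranked 19 and *Krt20* ranked 22 among the 56691 genes, followed by *Krt18* at rank 162 and *Krt7* at rank 3274. The mean level was 2178 FPKM for *Krt8*, 1410 for *Krt19*, 1006 for *Krt20*, 229.5 for *Krt18* and 15.45 for *Krt7*. The highest squamous keratin was *Krt13*, with a mean level of 0.839 FPKM, and the others had 0.690 (*Krt15*), 0.415 (*Krt14*), 0.093 (*Krt5*) and 0.011 FPKM (*Krt4*). Each simple keratin was higher in FPKM than the next one in this order in 10 of 10 mice. The order of *Krt13* and *Krt15* was not stable, since *Krt13* was the higher in 4 of 10 mice. *Krt15* exceeded *Krt14* in 8 mice, *Krt14* exceeded *Krt5* in 9, and *Krt5* exceeded *Krt4* in 9.

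**Figure D1:**
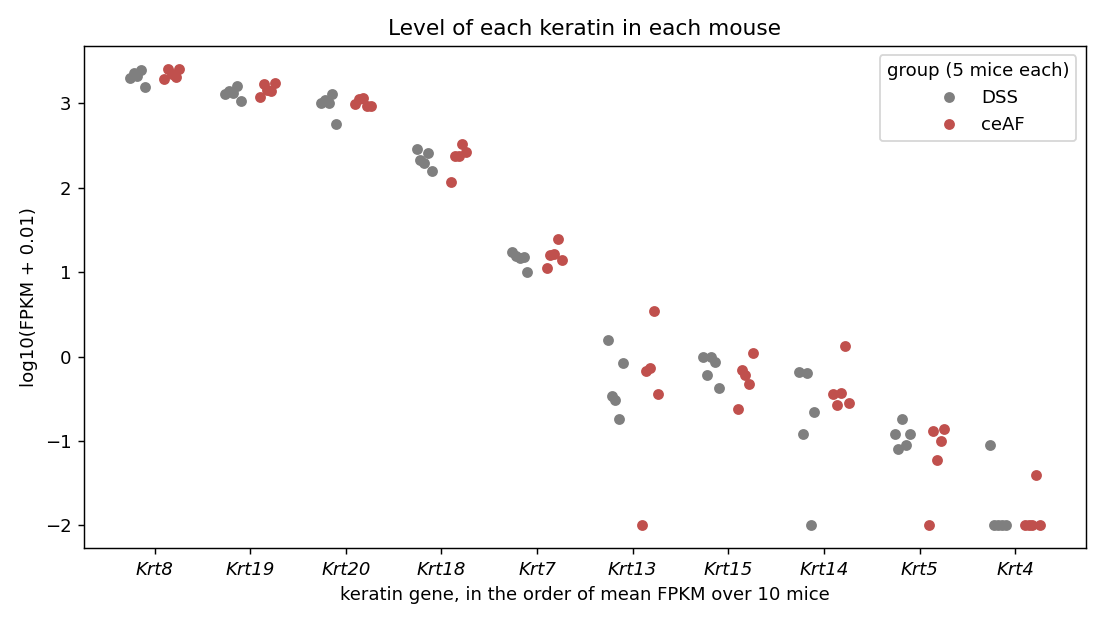
Level of each keratin in each mouse, as log10(FPKM + 0.01) on the vertical axis, with genes in the order of their mean FPKM. Each point is 1 mouse (grey DSS, red ceAF, 5 each), and the 5 simple keratins lie above the 5 squamous keratins in all 10 mice.

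Taken over all mice, the 10 keratins held between 0.645% (DSS-5) and 1.08% (DSS-4) of the reads counted on genes. The squamous keratins made up between 0.0137% (ceAF-1) and 0.113% (ceAF-4) of the summed FPKM of the 10 keratins.

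No difference between the groups was detected for any keratin by edgeR's quasi-likelihood test. At an adjusted p-value under 0.05, 0 of the 8 tested keratins and 0 of the 16545 tested genes (0%) were called. At an unadjusted p-value under 0.05, 607 genes (3.67%) were lower and 539 genes (3.26%) were higher in the ceAF group, and none of the 8 keratins was among either. DESeq2, which tested 16495 genes, called 30 genes at an adjusted p-value under 0.05 (0.181% of the 16545). No keratin of the 8 was among them. Of the 8 keratins, 7 had a positive and 1 a negative log2 fold change, with a median of 0.15, where all tested genes had a median of 0.0076, with 8511 positive and 8034 negative. In bulk tissue, a change in the number of epithelial cells and a change in keratin RNA per cell cannot be told apart.

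*Krt8* is the main type II chain of the colon epithelium (ENSMUSG00000049382, chromosome 15, 101905133 to 101912917, minus strand). Positions are as deposited, and their build is not given in the sources used here. Its level was 1971 FPKM in DSS-1, 2296 in DSS-2, 2102 in DSS-3, 2483 in DSS-4 and 1579 in DSS-5. It was 1958 FPKM in ceAF-1, 2533 in ceAF-2, 2232 in ceAF-3, 2059 in ceAF-4 and 2564 in ceAF-5. The lowest mouse was DSS-5, and the remaining mice of both groups were intermixed. The means were 2086 ± 344 FPKM in DSS and 2269 ± 274 in ceAF (SD, n = 5 each). In ceAF against DSS, *Krt8* had a log2 fold change of 0.14 (standard error 0.17, 95% interval −0.23 to 0.51; edgeR, adjusted p-value 0.916). That interval runs from 0.852-fold to 1.42-fold. Leaving out 1 mouse moved the estimate to between 0.07 (without DSS-5) and 0.23 (without DSS-4).

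Part of the *Krt8* transcript is shared with a pseudogene on chromosome 7, *Krt8-ps*. In the GENCODE M21 transcripts of GRCm38, 22.0% of the 75-base windows of *Krt8* occur without a mismatch in *Krt8-ps*, and the longest shared run is 299 bases. A further 28 windows lie in *Gm36026*, which overlaps the start of *Krt8* on the opposite strand. *Krt8-ps* had between 60 and 170 counts per mouse and 1071 in all, against 717356 counts in all for *Krt8*. Its level was 5.34 ± 1.28 FPKM in DSS and 8.11 ± 1.21 in ceAF (SD, n = 5 each). For *Krt8-ps*, ceAF against DSS gave a log2 fold change of 0.62 (standard error 0.21; edgeR, unadjusted p-value of 0.0121, adjusted p-value 0.656). How its reads were assigned is not given in the sources used here, and *Krt8-ps* and *Gm36026* were added once the values were known.

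*Krt7*, a type II chain more typical of ducts and of glandular epithelium than of colonic crypts (chromosome 15, 101308924 to 101328194, plus strand), was far lower than *Krt8*. Its level was 17.1 FPKM in DSS-1, 15.4 in DSS-2, 14.5 in DSS-3, 15.1 in DSS-4 and 10.2 in DSS-5. It was 11.3 FPKM in ceAF-1, 16.02 in ceAF-2, 16.27 in ceAF-3, 24.52 in ceAF-4 and 14.04 in ceAF-5. The mouse ceAF-4 stood above all others, DSS-5 was the lowest, and the rest overlapped. Between the groups, *Krt7* had a log2 fold change of 0.20 (standard error 0.19, 95% interval −0.21 to 0.61; edgeR, adjusted p-value 0.877), and it was 0.05 without ceAF-4 and 0.28 without ceAF-1. The exonic length given for *Krt7* was 7049 bases, and those of the other 9 keratins lay between 1437 and 2197 bases. On the length of the longest coding transcript of *Krt7* in GENCODE M21, 4094 bases, its level was between 17.5 and 42.2 FPKM, still below that of *Krt18* in each mouse.

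*Krt18* is the type I chain usually paired with *Krt8*, and its gene lies beside *Krt8* on chromosome 15 (101936615 to 101940462, plus strand), apart from the other type I members on chromosome 11. Its level was 286.9 FPKM in DSS-1, 214.0 in DSS-2, 194.2 in DSS-3, 260.8 in DSS-4 and 157.1 in DSS-5. It was 115.9 FPKM in ceAF-1, 238.4 in ceAF-2, 239.2 in ceAF-3, 326.0 in ceAF-4 and 262.3 in ceAF-5. The ceAF group held both the lowest mouse (ceAF-1) and the highest (ceAF-4), and its other 3 mice lay within the DSS range. Between the groups, *Krt18* differed by a log2 fold change of 0.09 (standard error 0.23, 95% interval −0.42 to 0.59; edgeR, adjusted p-value 0.971). It was 0.24 without ceAF-1 and turned negative, at −0.02, without ceAF-4. The lowest value by another method was 0.04, by limma-trend.

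*Krt19*, the smallest type I chain and the most abundant one here (chromosome 11, 100031636 to 100039491, minus strand), was above *Krt20* and below *Krt8* in FPKM in every mouse. Its level was 1305 FPKM in DSS-1, 1412 in DSS-2, 1308 in DSS-3, 1589 in DSS-4 and 1063 in DSS-5. It was 1184 FPKM in ceAF-1, 1670 in ceAF-2, 1431 in ceAF-3, 1380 in ceAF-4 and 1758 in ceAF-5. The groups overlapped, with ceAF-2 and ceAF-5 above every DSS mouse in FPKM and DSS-5 below every ceAF mouse. The means were 1335 ± 191 FPKM in DSS and 1485 ± 231 in ceAF (SD, n = 5 each). For *Krt19*, ceAF against DSS gave 0.17 on the log2 scale (standard error 0.16, 95% interval −0.18 to 0.51; edgeR, adjusted p-value 0.873). It was 0.11 without DSS-5 and 0.26 without DSS-4.

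*Krt20*, the type I chain of differentiated surface colonocytes (chromosome 11, 99319229 to 99328976, minus strand), was set apart by 1 low mouse. Its level was 1004 FPKM in DSS-1, 1083 in DSS-2, 1009 in DSS-3, 1282 in DSS-4 and 566.3 in DSS-5. It was 972.9 FPKM in ceAF-1, 1115 in ceAF-2, 1169 in ceAF-3, 925.1 in ceAF-4 and 937.7 in ceAF-5. All 5 ceAF mice lay within the DSS range, and DSS-5 was the lowest of the 10. The estimate for *Krt20* was a log2 fold change of 0.07 (standard error 0.21, 95% interval −0.40 to 0.54; edgeR, adjusted p-value 0.973). It turned negative, at −0.06, without DSS-5. The ratio of *Krt20* to *Krt19* within a mouse was 0.532 in DSS-5, and the remaining DSS mice had 0.767 to 0.807. In the ceAF group it was 0.822, 0.668, 0.817, 0.670 and 0.533 in ceAF-1 to ceAF-5, so ceAF-5 was as low as DSS-5 in this ratio while its *Krt19* level was the highest of all mice.

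**Figure D2:**
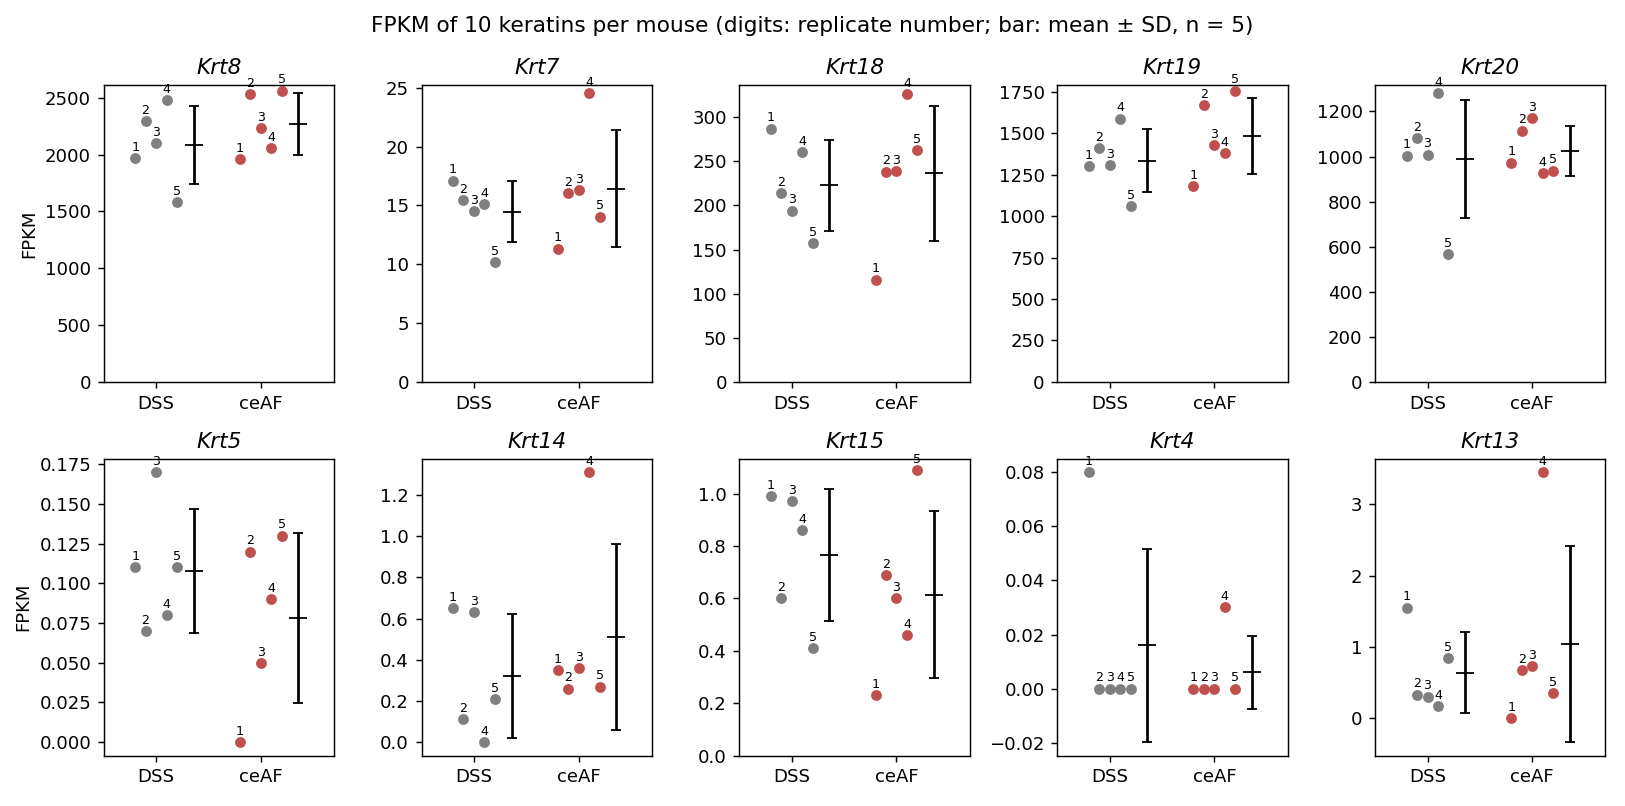
FPKM of each of the 10 keratins (vertical axis, each panel with its own scale) in the 5 DSS mice (grey) and the 5 ceAF mice (red), with replicate numbers at the points and the mean ± SD of each group as a black bar. The groups overlap in all 10 panels. DSS-5 is lowest for *Krt8*, *Krt7*, *Krt19* and *Krt20*, and ceAF-4 is highest for *Krt7*, *Krt18*, *Krt14* and *Krt13*.

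The balance of type I and type II chains varied less than either sum. Summed over *Krt18*, *Krt19* and *Krt20*, the type I simple keratins had between 1787 FPKM (DSS-5) and 3132 FPKM (DSS-4). The type II sum of *Krt8* and *Krt7* was between 1589 FPKM (DSS-5) and 2578 FPKM (ceAF-5). The ratio of the type I to the type II sum was 1.31, 1.17, 1.19, 1.25 and 1.13 in DSS-1 to DSS-5 and 1.15, 1.19, 1.26, 1.26 and 1.15 in ceAF-1 to ceAF-5. Its mean was 1.21 ± 0.0712 in DSS and 1.20 ± 0.0569 in ceAF (SD, n = 5 each), and the groups overlapped. Within the type I chains, the ratio of *Krt19* to *Krt18* was between 4.24 (ceAF-4) and 10.2 (ceAF-1), and the remaining mice lay between 4.55 and 7.003. The ratio of *Krt8* to *Krt19* stayed between 1.46 and 1.65 in the 10 mice.

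Over the 10 mice, the log2 CPM of *Krt8* followed that of *Krt19* (Pearson r = 0.963, Spearman rho = 0.976, n = 10 mice), and r was 0.929 without DSS-1 and DSS-5, the mice farthest from the median of *Krt8*. With *Krt20*, *Krt8* had r = 0.850 and rho = 0.697, and r was 0.623 without the same mice. With its usual partner *Krt18*, *Krt8* had r = 0.334 and rho = 0.127, and r was 0.179 without these mice. *Krt18* instead followed *Krt7*, with r = 0.790 and rho = 0.842, and r was 0.732 without DSS-5 and ceAF-4. These correlations describe 28 pairs of the 8 tested keratins in shared libraries of both groups and were not tested.

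Among the 16545 tested genes, *Krt19* was the one most like *Krt8* in log2 CPM over the 10 mice, and the next were *Fgd1* (r = 0.958), *9330162G02Rik* (r = 0.953), *Tcf7l2* (r = 0.940) and *Vdac2* (r = 0.929). The genes most like *Krt20* were *Gramd4* (r = 0.959), *Gtf2b* (r = 0.947), *Dok4* (r = 0.945), *Perm1* (r = 0.945) and *Alas1* (r = 0.941). For *Krt13*, the squamous keratin with the highest mean count, they were *Sh3pxd2b* (r = 0.976), *Cyyr1* (r = 0.971), *Actn1* (r = 0.966), *Tmem181c-ps* (r = 0.966) and *Fzd1* (r = 0.962), none of which is a keratin. Without the mice farthest from the median, r fell no lower than 0.869 for the genes named with *Krt8*, 0.733 for those with *Krt20* and 0.841 for those with *Krt13*. These are the highest of many correlations over 10 mice, and high values are found by such a search in any data. Of the genes named, *Fgd1*, *9330162G02Rik* and *Cyyr1* were scarce, at means of 0.212, 0.08 and 0.269 FPKM.

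Of the basal squamous keratins, *Krt5* was present as at most 6 reads per mouse. This type II chain (chromosome 15, 101615505 to 101621333, minus strand) had 4, 3, 6, 3 and 4 counts in DSS-1 to DSS-5 and 0, 4, 2, 3 and 5 counts in ceAF-1 to ceAF-5. In GENCODE M21, 7.77% of its 75-base windows also occur in other genes, most of them in *Krt6a*. Its total was 20 counts in DSS and 14 in ceAF, and it was not tested. The 0 in ceAF-1 allows up to 3 counts, or 0.0930 FPKM, which covers the level in some of the other mice. Such limits cover counting error only, since reads amplified by PCR are not independent molecules.

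*Krt14*, the type I partner of *Krt5* (chromosome 11, 100093988 to 100098374, minus strand), had 19, 4, 18, 0 and 6 counts in DSS-1 to DSS-5 and 9, 7, 12, 37 and 8 counts in ceAF-1 to ceAF-5. The highest mouse was ceAF-4, and the other 4 ceAF mice lay within the DSS range. The estimate for *Krt14* was 0.70 on the log2 scale (standard error 0.75, 95% interval −0.94 to 2.34; edgeR, adjusted p-value 0.899). Without ceAF-4 it was 0.04, and without DSS-1 it was 1.12. By limma-trend it was 0.18 on log2(FPKM + 1) and 0.69 on log2(FPKM + 0.1). In GENCODE M21, 5.91% of the 75-base windows of *Krt14* also occur in *Krt16*.

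*Krt15*, a type I chain of basal cells (chromosome 11, 100022584 to 100026754, minus strand), was the only tested member with a negative difference. It had 29, 21, 28, 25 and 12 counts in DSS-1 to DSS-5 and 6, 19, 20, 13 and 33 counts in ceAF-1 to ceAF-5. The ceAF group held both the lowest and the highest mouse. For *Krt15*, ceAF against DSS gave −0.30 on the log2 scale (standard error 0.37, 95% interval −1.12 to 0.51; edgeR, adjusted p-value 0.916), and it was −0.12 without ceAF-1 and −0.58 without ceAF-5. By limma-trend it was −0.14 on log2(FPKM + 1) and −0.34 on log2(FPKM + 0.1). *Krt15* did not follow *Krt14* over the mice (r = −0.219, rho = 0.006, n = 10 mice, and r = 0.266 without DSS-4 and ceAF-4).

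Of the keratins found above the basal layer of mucosal squamous epithelium, *Krt4* (type II, chromosome 15, 101826970 to 101833170, minus strand) was close to absent at this depth. It had 3 counts in DSS-1, 1 count in ceAF-4 and 0 in the other 8 mice. A count of 0 allowed a level of up to 0.0958 FPKM in ceAF-1, the shallowest library, and 0.0707 FPKM in DSS-2, the deepest. Since every mouse was at or under 3 counts, no fold change is given.

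*Krt13*, the type I partner of *Krt4* (chromosome 11, 100008153 to 100012392, minus strand), had 47, 12, 9, 5 and 25 counts in DSS-1 to DSS-5 and 0, 19, 25, 101 and 11 counts in ceAF-1 to ceAF-5. The ceAF group thus held the lowest and the highest mouse, and the highest, ceAF-4, had 3.45 FPKM. Between the groups, *Krt13* had an estimate of 0.71 on the log2 scale (standard error 0.90, 95% interval −1.27 to 2.68; edgeR, adjusted p-value 0.920). It turned negative, at −0.46, without ceAF-4, and it was 1.02 without ceAF-1 and 1.32 without DSS-1. By limma-trend it was 0.17 on log2(FPKM + 1) and 0.10 on log2(FPKM + 0.1). The type II partner *Krt4* had 1 count in ceAF-4 and 3 counts in DSS-1, the mice in which *Krt13* was highest.

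**Figure D3:**
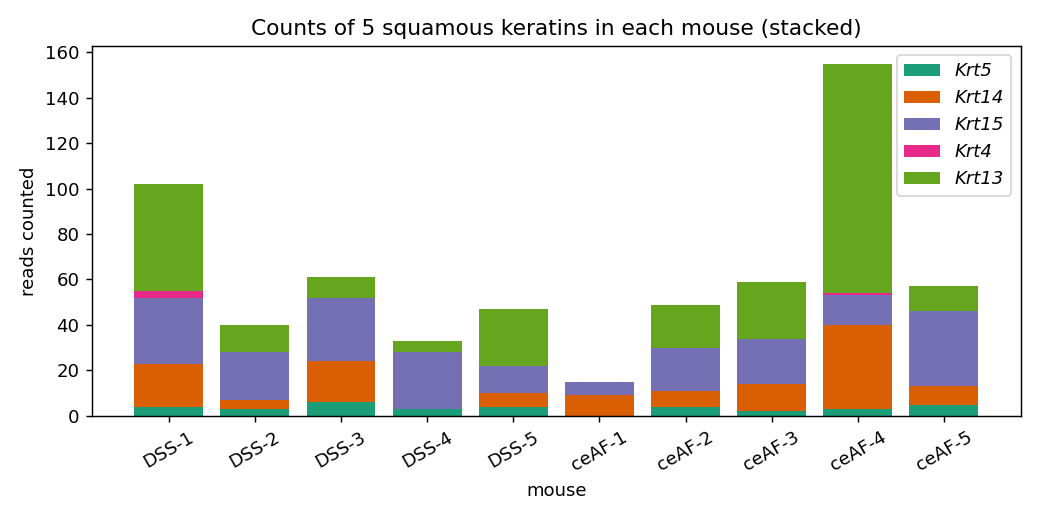
Reads counted on the 5 squamous keratins in each mouse (vertical axis), stacked by gene. The sum is highest in ceAF-4 with 155 counts and DSS-1 with 102, and lowest in ceAF-1 with 15.

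Summed over the 5 squamous keratins, DSS-1 to DSS-5 had 102, 40, 61, 33 and 47 counts and ceAF-1 to ceAF-5 had 15, 49, 59, 155 and 57 counts. The mouse with the highest sum in each group, DSS-1 and ceAF-4, was also the one with a read on *Krt4*. Without ceAF-4 the remaining ceAF mice lay at or below 59 counts.

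**Figure D4:**
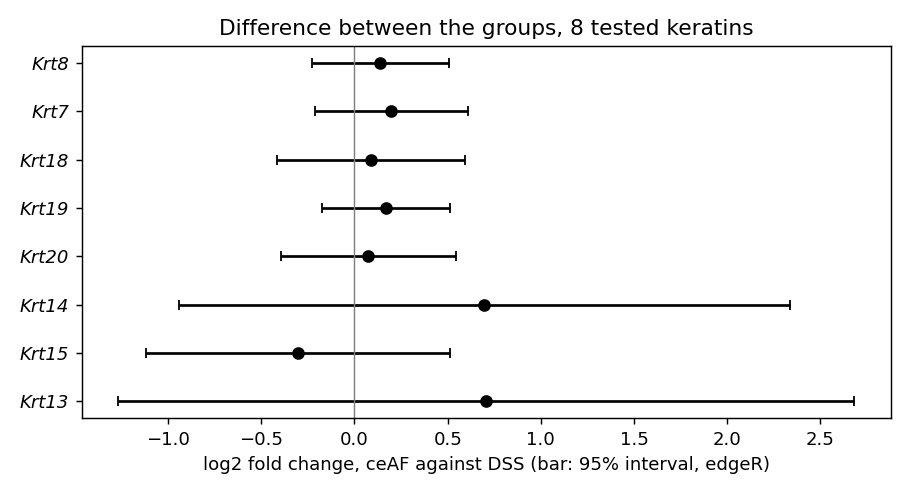
Log2 fold change of ceAF against DSS (horizontal axis) with its 95% interval for the 8 keratins that were tested. All 8 intervals include 0, and those of *Krt14* and *Krt13* are the widest.

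Markers of squamous differentiation other than keratins were set beside the squamous keratins. Of 24 symbols searched, 23 were in the table and 8 were tested, with 5 positive and 3 negative log2 fold changes and a median of 0.12. *Sprr3*, *Krtdap*, *Cnfn*, *Flg* and *Flg2*, named because they had no read, were at 0 in all 10 mice. Added once the values were known, *Trp63*, which encodes the transcription factor of basal squamous cells, had 7 counts over all mice. It was at 0.02 FPKM in ceAF-1, 0.01 in DSS-1 and DSS-5, and 0 in ceAF-4. *Ivl* (involucrin, of the cornified envelope), added in the same way, had 2 counts, both in DSS-1. Of the same list, *Ly6d*, *Tgm1*, *Anxa8*, *Sprr1a* and *Dmkn* were likewise added once the values were known. *Dmkn* was highest in DSS-1 (1.13 FPKM), at 0.34 FPKM in ceAF-4 and at 0.90 in ceAF-1. *Ly6d* was highest in ceAF-4 (25.78 FPKM) and DSS-1 (20.31 FPKM), the mice highest in squamous keratins, and lowest in ceAF-1 (1.47 FPKM). *Tgm1* was at 1.71 FPKM in DSS-1 and at 0.43 FPKM or less in the other mice. *Anxa8* was lowest in ceAF-1 (5.18 FPKM), at 113.1 FPKM in DSS-1 and 89.13 in ceAF-4, and highest in ceAF-5 (114.2 FPKM). *Sprr1a* was lowest in ceAF-1 (12.6 FPKM), at 43.69 FPKM in DSS-1 and highest in DSS-4 (63.24 FPKM) and ceAF-4 (62.89 FPKM). *Tgm3* was lowest in ceAF-4 (4.22 FPKM), at 36.14 FPKM in DSS-1 and highest in DSS-5 (242.5 FPKM). *Sfn* was lowest in ceAF-1 (76.67 FPKM), at 103.0 FPKM in ceAF-4 and 132.2 in DSS-1, and highest in DSS-5 (147.4 FPKM). The summed level was between 134.0 FPKM (ceAF-1) and 529.0 FPKM (DSS-5), and 325.9 FPKM in ceAF-4. Its most abundant genes, *Sfn* with a mean of 112.8 FPKM and *Tgm3* with 105.9 FPKM, are also expressed outside squamous epithelium. The only one at an unadjusted p-value under 0.05 was *Serpinb5*, with 29.6 ± 2.29 FPKM in DSS and 35.8 ± 3.96 in ceAF (SD, n = 5 each), or a log2 fold change of 0.30 (standard error 0.10; edgeR, unadjusted p-value of 0.00953, adjusted p-value 0.656).

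For the labelled tissue, all 12 colon epithelial markers were tested, led by *Lgals4* (mean 1577 FPKM) and *Epcam* (949.3 FPKM). Their summed level was between 4921 FPKM (DSS-5) and 6338 FPKM (DSS-1), with 8 negative and 4 positive log2 fold changes and a median of −0.02. *Tff3*, a goblet cell peptide, was the only one at an unadjusted p-value under 0.05 (log2 fold change −0.67, standard error 0.29; edgeR, unadjusted p-value of 0.0386, adjusted p-value 0.704). The 4 urothelial markers were low, with *Upk1a* and *Upk1b* at means of 6.10 and 0.770 FPKM, and 2 of 2 tested had negative values (median −0.18). The 5 mesothelial markers summed to between 0.280 and 2.80 FPKM, with *Msln* highest at a mean of 0.543 FPKM, then *Gpm6a* at 0.408 FPKM, and 2 of 2 tested had negative values (median −0.72).

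Genes of position along the colon varied widely between the mice. *Hoxb6*, which marks proximal colon, was at 0.67, 12.95, 19.15, 10.83 and 0.50 FPKM in DSS-1 to DSS-5 and 41.4, 0.43, 8.61, 1.59 and 0.48 FPKM in ceAF-1 to ceAF-5. *Hoxb13*, which marks the distal colon and rectum, was at 35.9, 43.4, 43.3, 48.2 and 94.91 FPKM in DSS-1 to DSS-5 and 2.50, 96.1, 65.6, 4.83 and 88.95 FPKM in ceAF-1 to ceAF-5. The library ceAF-1, with the lowest *Krt18* and the lowest sum of squamous keratins, was thus highest in *Hoxb6* and lowest in *Hoxb13*, and ceAF-4, with the highest *Krt13* and *Krt14*, was low in both. *Hoxa13* was at 1.16 FPKM in ceAF-1 and between 17.7 and 40.2 FPKM in the other mice, with 38.45 in ceAF-4. *Hoxd13* was at 48.2 FPKM in ceAF-2, 42.4 in ceAF-3, 0 in ceAF-4 and between 0.56 and 4.29 in the other mice. Of the 6 position genes, 5 were tested, 3 with positive and 2 with negative values (median 0.38), and only *Hoxd13* passed the unadjusted limit of 0.05 (log2 fold change 2.91, standard error 1.23; edgeR, adjusted p-value 0.703). The part of position in the keratin levels was not tested.

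The surface colonocyte markers of DSS-5, the mouse lowest in *Krt20*, went in both directions. The 8 markers summed to 2128 FPKM in DSS-5, the lowest of all mice, and to 12060 FPKM in ceAF-1, the highest. *Car1* made up 52.1% of the mean sum, with 93.3 FPKM in DSS-5 and 8530 FPKM in ceAF-1, and *Guca2a* was at 278.7 FPKM in DSS-5 and 301.5 FPKM in ceAF-5. Of the others, added once their values were known, *Cyp2c55* was lowest in DSS-5 (1.95 FPKM) and *Aqp8* (306.5 FPKM) was lower in ceAF-1 alone, while *Car4* (1060 FPKM) and *Slc37a2* (24.97 FPKM) were highest there. *Slc26a3* was at 272.4 FPKM in DSS-5, below ceAF-2 alone, and *Ceacam20* was at 91.13 FPKM there with a mean of 84.43. All 8 were tested, with 4 positive and 4 negative values and a median of −0.02, and none was at an unadjusted p-value under 0.05. The summed smooth muscle markers were highest in DSS-5 (1019 FPKM) and nearly as high in ceAF-2 (1009 FPKM), and the summed colon epithelial markers were lowest in DSS-5 (4921 FPKM) and nearly as low in ceAF-5 (4953 FPKM). In FPKM, *Krt8* and *Krt19* were lowest in DSS-5 and highest in ceAF-2 and ceAF-5. In CPM, DSS-5 was again lowest for both. There *Krt8* was highest in DSS-4 (5107, with 5026 in ceAF-2). *Krt19* was at 3139 CPM in ceAF-2, 3096 in DSS-4 and 3068 in ceAF-5. The part of these cells in the keratin levels of DSS-5 was not tested.

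The 8 smooth muscle markers, led by *Actg2* and *Acta2* with means of 204.3 and 160.3 FPKM, ranged from 360.4 FPKM (ceAF-1) to 1019 FPKM (DSS-5), and all 8 had negative log2 fold changes with a median of −0.14, none at an unadjusted p-value under 0.05. The 5 fibroblast markers, led by *Col3a1* and *Dcn* with means of 23.3 and 18.8 FPKM, were all negative with a median of −0.37 and were highest in DSS-1 with 136.8 FPKM in sum. The 5 leukocyte markers, led by *Lyz2* and *Cd79a* with means of 80.7 and 9.26 FPKM, were all negative with a median of −0.75 and again highest in DSS-1 with 248.0 FPKM in sum. *Cd3e* (log2 fold change −1.19, standard error 0.33) and *Itgam* (−1.30, standard error 0.58) were at unadjusted p-values of 0.00442 and 0.0461, with adjusted p-values of 0.656 and 0.717 in edgeR. For *Itgam*, DSS-1 had 9.12 FPKM, while the other DSS mice had 0.91 to 1.99 FPKM and the ceAF mice 0.77 to 1.51 FPKM. The part of muscle, fibroblasts and leukocytes in the keratin values, which are shares of a library that also holds these cells, was not tested.

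Keratin filaments are anchored to other cells by desmosomes. Of 17 desmosome and plakin genes, 13 were tested, 10 with positive and 3 with negative values and a median of 0.11, and none was at an unadjusted p-value under 0.05. The most abundant were *Perp* (mean 211.6 FPKM) and *Dsg2*, the desmoglein of simple epithelium (94.8 FPKM). The stratified desmogleins, added once their values were known, were low, with *Dsg3* at a mean of 0.317 FPKM, *Dsg1a* at 5 counts over all mice and *Dsg1b* at 0. The stratified desmocollin *Dsc3*, likewise added, was at 1.2 FPKM in DSS-1, high in squamous keratins, and at 0.06 FPKM or less in the other mice. The summed level was lowest in DSS-5 with 454.4 FPKM and highest in ceAF-4 with 742.2 FPKM. Of the 8 hemidesmosome and anchoring genes, which tie the basal side of the cell to the basement membrane, 7 were tested, 5 positive and 2 negative with a median of 0.06, none at an unadjusted p-value under 0.05, led by *Lamb3* (mean 44.1 FPKM) and *Itgb4* (34.4 FPKM). Their sum was also highest in ceAF-4, at 239.5 FPKM, while *Col17a1*, typical of squamous basal cells and likewise added afterwards, was at a mean of 0.048 FPKM and at 0.01 FPKM in ceAF-4.

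Of the 8 injury and regeneration markers, 6 were tested, 2 positive and 4 negative with a median of −0.27, led by *Ly6a* and *S100a6* with means of 1004 and 370.0 FPKM. *S100a6* (log2 fold change −0.44, standard error 0.19) and *Il33* (−1.27, standard error 0.56) were at unadjusted p-values of 0.0455 and 0.0450, with adjusted p-values of 0.717 and 0.715 in edgeR. *Il33* was at 6.09 FPKM in DSS-1, at 0.71 to 2.51 FPKM in the other DSS mice and at 0.38 to 1.7 FPKM in the ceAF mice. *Anxa10*, named because it had no read, was at 0 in all mice. The 6 crypt base and proliferation markers, led by *Mki67* and *Top2a* with means of 11.9 and 8.78 FPKM, had 5 positive and 1 negative value with a median of 0.40. *Axin2* had an unadjusted p-value of 0.0478 in edgeR (log2 fold change 0.64, standard error 0.29, adjusted p-value 0.717).

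Beyond the 10 members, 40 further genes with a symbol of *Krt* followed by a number alone were in the table. Symbols with added letters, such as *Krt8-ps* (mean 6.72 FPKM, described above) and *Krt6a*, are outside these 40. Of the 40, 11 were tested, 5 with positive and 6 with negative log2 fold changes and a median of −0.22. None of these 11 was at an unadjusted p-value under 0.05. Among the 40, the highest by mean FPKM were *Krt23* (6.61 FPKM), *Krt87* (1.33), *Krt12* (1.27), *Krt10* (1.16) and *Krt17* (1.10). Each was thus below *Krt7*, and 9 of the 40 had no read in any mouse. *Krt23*, a type I chain, had 6.55 ± 2.39 FPKM in DSS and 6.66 ± 4.06 in ceAF (SD, n = 5 each), with a log2 fold change of 0.01 and a standard error of 0.41 (edgeR, adjusted p-value 0.998). *Krt17*, which is known from injured and basal epithelium, was at 0.13 FPKM in ceAF-1 and between 0.75 and 1.7 FPKM in the other mice. *Krt16*, picked from the 40 once its values were known, had 0 counts in all 5 DSS mice and 30 counts in the ceAF group. These lay mostly in ceAF-3 (0.51 FPKM) and ceAF-5 (0.41 FPKM). It was at 0.12 FPKM in ceAF-2, 0.04 in ceAF-4 and 0 in ceAF-1, with at most 15 counts in a mouse. *Krt16* was too low to be tested, and how many other scarce genes were read in only 1 group was not counted.

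The type I members lie on chromosome 11 except *Krt18*, which lies with the type II members on chromosome 15. In the deposited positions, the 5 on chromosome 11 lie within 779.1 kb in the order *Krt20*, *Krt13*, *Krt15*, *Krt19* and *Krt14*, all on the minus strand. The 5 on chromosome 15 lie within 631.5 kb in the order *Krt7*, *Krt5*, *Krt4*, *Krt8* and *Krt18*, and the gap between *Krt8* and *Krt18*, which are read away from each other, is 23.7 kb. Neighbours differed widely in level, as *Krt15* at a mean of 0.690 FPKM lies between *Krt13* at 0.839 FPKM and *Krt19* at 1410 FPKM.

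RefSeq promoter sequences (GRCm38.p6) were matched for 7 of the 10 keratins and not for *Krt19*, *Krt15* and *Krt4*. The 100 bases before the start of transcription are shown for an abundant and a scarce member of each type, and for *Krt18*. Capitals mark ATAAAAG, a motif picked once the sequences had been read, which was searched on both strands.

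*Krt8*, chr15:102004343-102004442, minus strand: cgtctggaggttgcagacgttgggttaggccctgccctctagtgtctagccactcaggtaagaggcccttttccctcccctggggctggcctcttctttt
*Krt18*, chr15:102028116-102028215, plus strand: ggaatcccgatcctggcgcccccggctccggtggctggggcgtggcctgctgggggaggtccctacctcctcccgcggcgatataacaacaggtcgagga
*Krt20*, chr11:99438154-99438253, minus strand: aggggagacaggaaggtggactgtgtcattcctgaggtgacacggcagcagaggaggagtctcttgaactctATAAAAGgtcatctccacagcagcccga
*Krt5*, chr15:101712906-101713005, minus strand: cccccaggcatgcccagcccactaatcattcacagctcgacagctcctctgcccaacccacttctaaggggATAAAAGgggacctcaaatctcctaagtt
*Krt13*, chr11:100121567-100121666, minus strand: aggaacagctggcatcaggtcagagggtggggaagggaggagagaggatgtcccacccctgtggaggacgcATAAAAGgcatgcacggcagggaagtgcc

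The motif begins 28 bases before the start in *Krt20*, 29 in *Krt5*, 29 at the first of the *Krt13* starts listed and 7 in *Krt7*, and it was not found in the 250 bases before *Krt8*, *Krt18*, *Krt14* or the other start of *Krt13*. Of 32851 promoters in the table, 4.83% hold ATAAAAG within 250 bases and 1.17% within 40 bases before the start. The motif TATAAA was found before *Krt20* and before no other matched keratin, and 12.4% of all promoters hold it within 250 bases. TGANTCA was found before both starts of *Krt13*, against 6.75% of all promoters, GGGCGG before *Krt7*, against 32.7%, and CCAAT before the other start of *Krt13*, against 33.8%. The match occurs before a keratin of 1006 FPKM as well as before keratins of 0.093 and 0.839 FPKM.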

How the data were processed

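Colon of 5 DSS mice and 5 ceAF mice was sequenced from poly(A) RNA. The authors deposited 1 table with the count of reads per gene in each mouse, as whole numbers. The authors also deposited FPKM, which equal the count divided by exonic length and library total. The submitters' processing notes name cutadapt 1.9.1 and HISAT2 2.2.1, and the counting program, its handling of strand and shared reads, and the genome build are not given in the sources used here. Genes were kept by filterByExpr (minimum count 10), scaled by TMM and compared by the quasi-likelihood test of edgeR 4.0.16 in R 4.3.3, two-sided, with Benjamini-Hochberg adjustment over all 16545 genes kept; the script was tested on simulated data. Per-mouse CPM used the same scaling, and log2 CPM a prior of 1 count. Intervals are 95%. Of the 56691 genes, 2639 have no symbol. The 20 pairs of libraries within groups differed by more than counting noise (chi-square per gene from 14.7 to 149), and that each library is a separate mouse rests on the labels. DSS-2, DSS-3 and DSS-4 were the most alike (14.7, 15.8 and 21.4), and the other DSS pairs had 47 to 97.7. In the ceAF group, ceAF-2 and ceAF-3 had 26.5 and the other pairs 50 to 149. Alternatives were upper quartile scaling, DESeq2 1.42.0, no filter, the replicate number as a block, limma 3.58.1 (limma-trend) on log2(FPKM + 1) and log2(FPKM + 0.1), and leaving out each mouse. Named genes were the 10 keratins, the 5 highest in mean FPKM of the 40 other keratins, and *Hox* genes of position. Of each marker list, the 2 highest and those at an unadjusted p-value under 0.05 were named. The 5 genes most correlated with *Krt8*, *Krt20* and *Krt13* were also named. Others are said in the text to be added afterwards or named because they had no read. Windows of 75 bases were compared with GENCODE M21 transcripts. Figures were drawn with matplotlib 3.10.9. The keratins and lists were chosen with earlier results of these data known.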

Additional observations from a re-analysis of the deposited data

Results flagged for a closer look

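A mouse was picked out where its gap to the nearest mouse of its group was more than 0.71 of the range of the group, the limit for 5 values. Among 76 groups of values there were 13 such cases. The limit is passed by chance in about 1 in 20 groups only where groups are independent and values normally distributed. Many of the groups here are sums or ratios of the same genes, and some rest on very low counts. The 13 cases therefore cannot be set against that rate, and an excess over chance was not tested. In the ceAF group, ceAF-4 was far above the other mice for *Krt14* (0.860 of the range) and *Krt13* (0.772), for the summed FPKM of the squamous keratins (0.735) and for their share of the 10 keratins (0.794), and these values share their reads. For *Krt4* the value was 1.0 in both groups, because 1 mouse in each (DSS-1 and ceAF-4) had any read, at most 3 counts.

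In the DSS group, DSS-5 was far below the other mice for the ratio of *Krt20* to *Krt19* (0.855), the summed desmosome and plakin genes (0.791) and the summed urothelial markers (0.761), and far above them for the summed position genes (0.721). DSS-1 was far above the other DSS mice for fibroblast markers (0.822) and leukocyte markers (0.836). In the ceAF group, ceAF-1 was far above for the surface colonocyte markers (0.800).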

How the results depend on the processing

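The fits were repeated in 16 other ways, which gave 128 values for the 8 tested keratins, and 125 of them kept their direction. Of the 128, 80 came from fits without 1 mouse and 48 from other settings. All of them reuse the same mice, so a kept direction is largely built in and is no evidence of a difference. The 3 that reversed came from leaving out 1 mouse: *Krt18* was −0.0217 without ceAF-4 (highest 0.2442 without ceAF-1), *Krt20* −0.0591 without DSS-5 (highest 0.2129 without DSS-4) and *Krt13* −0.4584 without ceAF-4 (highest 1.325 without DSS-1). No keratin had an adjusted p-value below 0.596 in any fit. With the replicate block, *Krt8* was 0.1554, *Krt20* 0.12 and *Krt13* 0.3194, and 341 genes were lower and 353 higher at an unadjusted p-value under 0.05, against 607 and 539. The labels give mice with the same number no other link. Correlations of their deviations from the group means were −0.249, −0.136, −0.00428, −0.159 and 0.286 for numbers 1 to 5. Only DSS-5 was closest to the ceAF mouse of its own number. Whether such mice shared a cage, a day or a batch is not given in the sources used here, and these values cannot settle it. DESeq2 called 30 genes at an adjusted p-value under 0.05 where edgeR called 0. Without the filter 976 genes were lower and 757 higher, of 32504 tested. Limma-trend gave 701 lower and 308 higher genes on log2(FPKM + 1) and 699 and 291 on log2(FPKM + 0.1). Leaving out 1 mouse gave 3 genes at an adjusted p-value under 0.05 without DSS-5, and 0 without any other mouse. At an unadjusted p-value under 0.05, these fits gave between 321 (without DSS-1) and 997 (without ceAF-1) lower genes. Higher genes were between 391 (without DSS-1, and also without DSS-4) and 875 (without ceAF-1). The cause was not tested.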
